A study of Homo sapiens with 12 samples.

Results

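Lysosomal genes were examined in MYC-amplified medulloblastoma (MB) cells treated with entinostat, an inhibitor of class I histone deacetylases (HDACs). The set comprised 45 genes. These were 8 glycosidases and other hydrolases, 10 cathepsins and peptidases, 3 lipid transfer and activator proteins, 6 membrane proteins and channels, 3 transcription factors and 15 genes of the vacuolar proton pump, the V-ATPase, of which 7 belong to the membrane sector V0 or its accessory proteins and 8 to the cytosolic sector V1. The rule uses names and no measured value: a probe set was taken where its annotated symbol, current or former, was that of a member. Of the 45 genes, 43 had a probe set of their own, with 105 of the 54613 probe sets tested, against 19752 genes measured in all. GLB1, the lysosomal beta-galactosidase, and ATP6V1F, a V1 subunit, occur only in probe sets that carry several gene symbols, so no value is given for them.

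HD-MB03 is an established human cell line of group 3 MB with an amplified MYC gene. The cells received 1 µM entinostat or the solvent DMSO for 24 h or 48 h, which gave the groups DMSO 24 h, entinostat 24 h, DMSO 48 h and entinostat 48 h with 3 biological replicates each. The 12 RNA samples were measured on as many Affymetrix arrays of the type Human Genome U133 Plus 2.0. All 4 groups are this single line in culture, and the control of each time point is solvent alone.

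Lysosomes break down proteins, lipids, glycans and glycogen with enzymes that work in an acid lumen, and the V-ATPase acidifies that lumen by pumping protons at the cost of ATP. V1 holds the ATP-hydrolysing subunits and V0 the proton path, and the sectors assemble and come apart in a regulated way. The transcription factors TFEB, TFE3 and MITF bind the CLEAR element, a palindrome around the E-box CACGTG, in promoters of many lysosomal genes, and the same E-box is bound by MYC with its partner MAX.

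Because of this motif, the promoter windows of the members were read first. RefSeq windows on GRCh38.p14, from 250 bases before to 50 bases after an annotated start site, were at hand for 34 of the 45 members, and not for HEXA, ASAH1, CTSB, CTSS, PSAP, LAMP2, ATP6V0E1, ATP6V1A, ATP6V1B2, ATP6V1C1 and ATP6V1H. The letters CACGTG, which read the same on both strands, occurred in windows of 12 of these 34 genes (35.3%), against 8.77% of the 27305 genes with a window. By windows these were 25.5% of 51 and 7.26% of 35116. The longer palindrome TCACGTGA, which contains the first, occurred in windows of 7 members (20.6%, against 1.18% of all genes with a window), and GTCACGTGAC, which contains both, in 3 members, GAA, MCOLN1 and ATP6V1G1 (8.82%, against 0.421%). By windows these were 15.7% against 0.98% and 5.88% against 0.353%. A match of letters is a description of the window and not a measured binding site.

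The sites below are shown because they belong to members whose transcripts rose (NEU1, ATP6V0B), fell (GAA), changed sign between the times (ATP6V0D1), passed at 48 h but not at 24 h (LAMP1) or passed at 24 h but not at 48 h (MCOLN1, ATP6V1G1). Each line gives 30 bases on the strand of the gene, 5′ to 3′, with the longest of the 3 palindromes in capitals.
GAA, chr17:80101493-80101522, plus strand: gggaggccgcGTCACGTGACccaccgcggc
GAA, chr17:80101538-80101567, plus strand: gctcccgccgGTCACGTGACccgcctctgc
ATP6V1G1, chr9:114587699-114587728, plus strand: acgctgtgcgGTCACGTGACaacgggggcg
MCOLN1, chr19:7522571-7522600, plus strand: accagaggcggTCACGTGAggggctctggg
LAMP1, chr13:113297199-113297228, plus strand: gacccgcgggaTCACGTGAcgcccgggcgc
LAMP1, chr13:113297068-113297097, plus strand: gccgctgcgggtCACGTGccgctgcgggtc
ATP6V0D1, chr16:67481199-67481228, minus strand: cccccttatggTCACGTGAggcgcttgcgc
ATP6V0B, chr1:43974891-43974920, plus strand: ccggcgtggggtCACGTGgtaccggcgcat
NEU1, chr6:31862930-31862959, minus strand: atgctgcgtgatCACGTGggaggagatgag

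The first base of CACGTG lay 76 and 31 bases before the start site in GAA, 58 in ATP6V1G1, 41 in MCOLN1, 59 in ATP6V0D1, 57 in ATP6V0B and 126 in NEU1. LAMP1, on chromosome 13, had 6 such sites, of which 4 lay upstream at 192, 176, 159 and 142 bases before the start and the other two at 28 bases and 1 base before it. MCOLN1, ATP6V0B, GAA, CTSA, CTSF and CLN3 had 2 sites each, and CD63, CTSD, NEU1, ATP6V0D1 and ATP6V1G1 had 1.

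**Figure D1:**
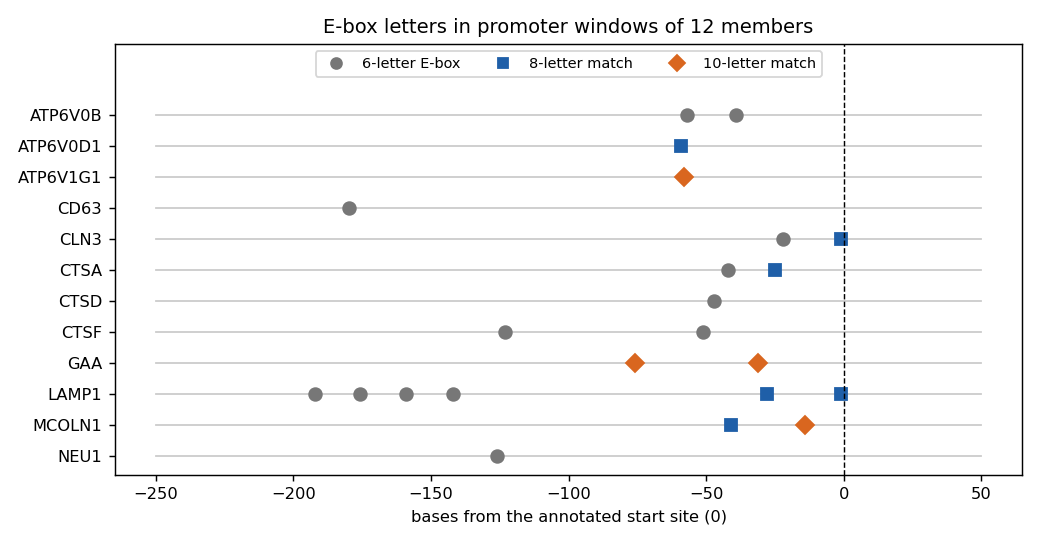
Positions of the E-box CACGTG in the promoter windows of the 12 members that hold it, in bases from the annotated start site (dashed line), with a grey line for each window. Circles mark the 6-letter motif alone, squares TCACGTGA and diamonds GTCACGTGAC, and most sites lie within 60 bases before the start, while 4 of the 6 sites of LAMP1, 1 site each of CTSF and GAA and those of CD63 and NEU1 lie farther upstream.

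Intensities were deposited in linear form, with array medians between 80.6 and 81.8 and a lowest value of 36.7, so a background level is left in every value and compresses the fold change of a dim probe set. A gene is represented by its probe set with the highest mean log2 intensity over the 12 arrays. MYC had a mean log2 of 13.53 and the group 3 genes OTX2, IMPG2, NRL and GABRA5 had 12.65, 10.73, 10.24 and 8.86, whereas NPR3, EYS and CRX were near background (6.19, 5.52 and 6.78). Of these 8 genes 3 were called lower at 24 h, while 3 were lower and 1 (MYC, 0.17) was higher at 48 h, with medians of -0.22 and -0.27. The lower share was thus 37.5% at each time. Of all genes 15.0% and 16.6% were lower, and of those with a mean log2 of 8 or more 27.6% and 30.8%. The higher share at 48 h was 12.5%, beside 17.3% and 25.7%. At 24 h 5 of the 8 did not pass, and at 48 h 4 did not. IMPG2 fell by 2.02 and 1.52 and GABRA5 by 1.78 and 2.12 on the log2 scale. The summed intensity of the 8 ran from 21680 to 24590 in DMSO and 18480 to 19830 in entinostat at 24 h, and from 24380 to 26000 and 22270 to 22800 at 48 h. IMPG2 and GABRA5 thus moved with the treatment, as did some members, and the part of these markers in the members' values was not tested. Markers of macrophages, cells rich in lysosomes, were near background in 8 of 8 cases, with mean log2 values from 5.78 to 6.61 and summed intensities of 548.2 to 566 in DMSO and 557 to 573 in entinostat at 24 h, and of 558 to 572 and 571 to 572 at 48 h. Of these 8, CSF1R was called higher at 48 h, at a log2 fold change of 0.29. This is 12.5% of the 8, beside 17.3% of all genes. As a sign of RNA quality, the 3′ minus the 5′ log2 value of GAPDH ran from -0.18 to -0.03 over the arrays. For ACTB it was -0.16, -0.12 and -0.14 in entinostat at 48 h against -0.10, -0.03 and -0.08 in DMSO, and its part in the 48 h results was not tested.

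More members were higher than lower under entinostat at both times. At 24 h 16 of the 43 measured members rose, 9 fell and 18 did not pass an adjusted p of 0.05 from limma, while 18.3% of all genes were higher and 15.0% lower. At 48 h 21 rose, 7 fell and 15 did not pass, against 17.3% and 16.6% of all genes. The median log2 fold change of the members was 0.10 at 24 h and 0.18 at 48 h, and that of all genes -0.020 and -0.015. In an additive model over both times 20 members were higher and 9 lower, where 21.0% and 19.7% of all genes were.

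Lysosomal probe sets are brighter than most, and bright probe sets pass more often. In the 6471 genes whose mean log2 was 8 or more, 26.8% were higher and 27.6% lower at 24 h, and 25.7% and 30.8% at 48 h. Of the 35 members as bright as that, 15 were higher and 8 lower at 24 h, while the 48 h counts were 18 and 6. These are 42.9% higher and 22.9% lower at 24 h, and 51.4% and 17.1% at 48 h. Over all 43 members the lower calls were 20.9% at 24 h and 16.3% at 48 h, beside 15.0% and 16.6% of all genes. A change in intensity is a change in the share of a transcript in the RNA hybridized, so less RNA per cell and fewer cells of a state in the culture cannot be told apart.

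**Figure D2:**
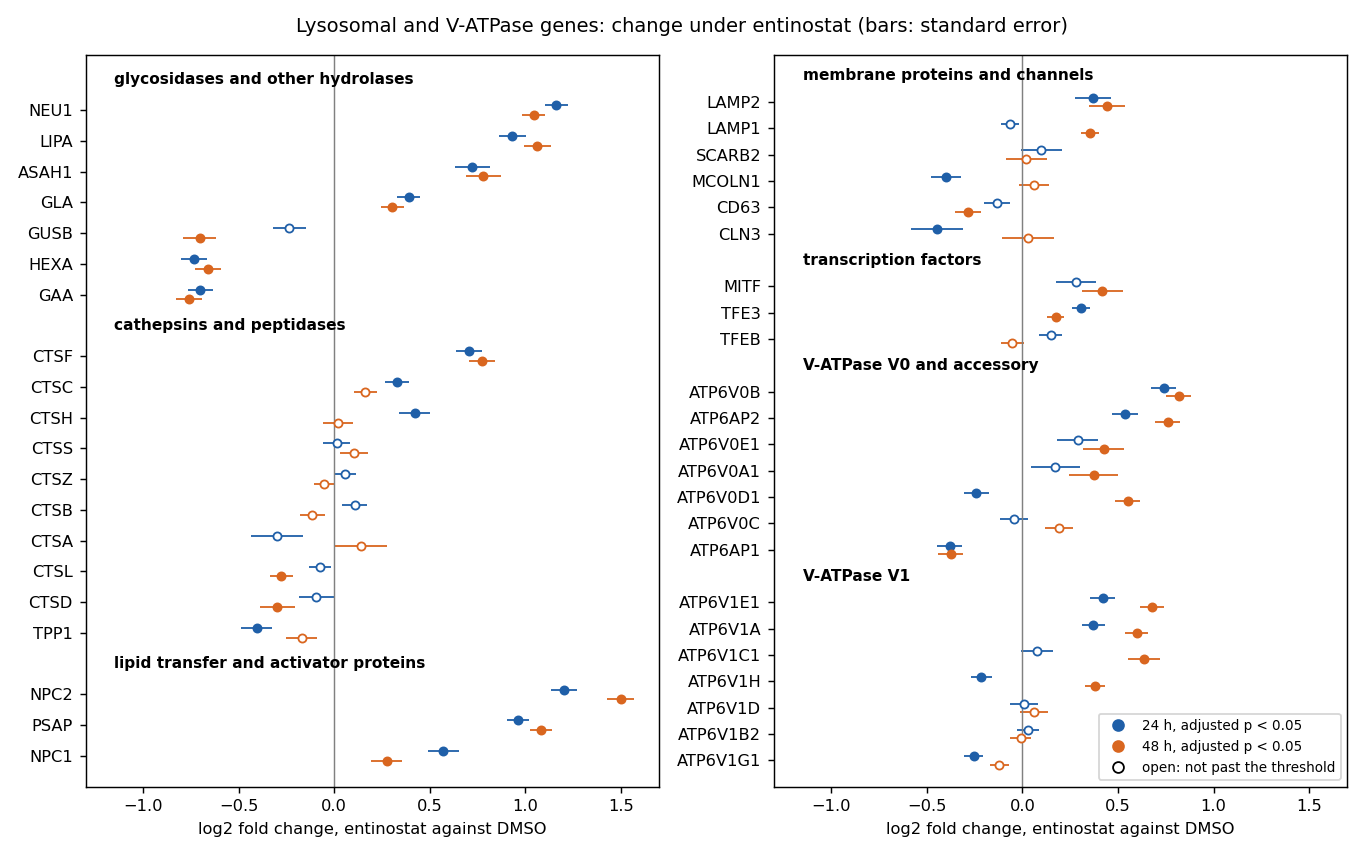
Log2 fold change of each of the 43 measured members, entinostat against DMSO, at 24 h (blue) and 48 h (orange), grouped by role, with bars for the standard error from limma (3 arrays per group). Filled points passed an adjusted p of 0.05 and open points did not: NPC2, NEU1, LIPA and PSAP lie farthest to the right and HEXA, GAA and GUSB farthest to the left, and 13 of the 14 V-ATPase genes lie farther right at 48 h than at 24 h.

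Among the hydrolases, 4 of the 7 measured rose at both times, 2 fell at both, and GUSB fell at 48 h. The shares were 57.1% higher and 28.6% lower at 24 h, and 57.1% and 42.9% at 48 h. Of the bright genes these were 26.8% and 27.6% at 24 h, and 25.7% and 30.8% at 48 h. NEU1, the sialidase that removes sialic acid from glycans, was measured at 255, 263 and 242 in DMSO and 566, 598 and 538 in entinostat at 24 h. At 48 h its intensities were 254, 231 and 247 in DMSO and 486, 526 and 494 in entinostat. The treated and control arrays did not overlap at either time, and the level was more than 2-fold higher, with log2 fold changes of 1.16 (standard error 0.061, adjusted p = 6.02e-08) and 1.04 (standard error 0.061, adjusted p = 1.13e-07). LIPA, the acid lipase that releases cholesterol and fatty acids from lipoprotein lipids, had 705, 671 and 581 in DMSO and 1293, 1242 and 1191 in entinostat at 24 h and 613, 583 and 569 in DMSO and 1205, 1259 and 1220 in entinostat at 48 h. Every treated array of LIPA was above every control array, and the log2 fold changes were 0.93 (standard error 0.070, adjusted p = 9.52e-07) and 1.06 (standard error 0.070, adjusted p = 2.91e-07). A further probe set of LIPA, near background, gave 0.074 and -0.070 and did not pass.

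ASAH1, acid ceramidase, which cleaves ceramide to sphingosine, stood at 1136, 1119 and 994 in DMSO and 1842, 1828 and 1685 in entinostat at 24 h. Its 48 h values were 1097, 1130 and 1015 in DMSO and 1793, 2144 and 1656 in entinostat. The groups were apart at both times, although entinostat replicate 2 at 48 h was well above the other two, and the log2 fold changes were 0.72 (standard error 0.091, adjusted p = 6.81e-05) and 0.78 (standard error 0.091, adjusted p = 3.26e-05). Of the 4 brighter probe sets of ASAH1, 2 passed at 24 h and 4 at 48 h, all higher. GLA, alpha-galactosidase A, rose less, by 0.39 and 0.30 on the log2 scale.

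In the opposite direction, GAA, the acid alpha-glucosidase that degrades glycogen, was lower, with 443, 442 and 467 in DMSO and 299.7, 258 and 276 in entinostat at 24 h. At 48 h it had 459, 431 and 466 in DMSO and 284, 253 and 263 in entinostat. The highest treated array lay well below the lowest control array at both times, with log2 fold changes of -0.70 (standard error 0.067, adjusted p = 6.8e-06) and -0.76 (standard error 0.067, adjusted p = 3.03e-06). HEXA, the alpha subunit of the beta-hexosaminidase that degrades GM2 ganglioside, fell from 694 ± 15.3 to 418 ± 12.1 at 24 h and from 626 ± 38.6 to 397 ± 34.9 at 48 h (mean ± SD, n = 3 arrays), with log2 fold changes of -0.73 and -0.66. GUSB, beta-glucuronidase, had -0.23 at an adjusted p of 0.0708 at 24 h and -0.70 at an adjusted p of 5.29e-05 at 48 h. Its interaction of treatment and time, the difference between these effects, did not pass, at -0.47 at an adjusted p of 0.0946. NEU1 and GAA thus changed in opposite directions, NEU1 to 2.24 and 2.06 times control at 24 h and 48 h and GAA to 0.616 and 0.59 of control.

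**Figure D3:**
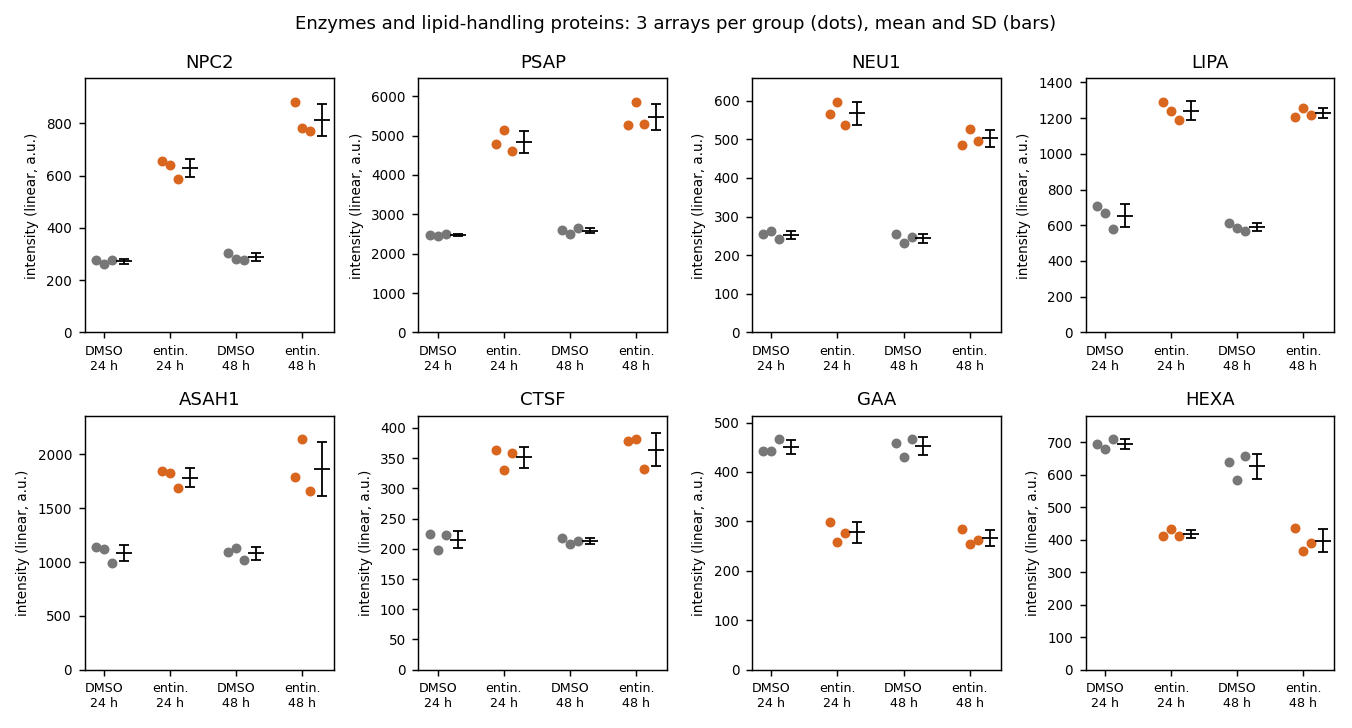
Intensity (linear, arbitrary units, axes from 0) of 8 members on each of the 12 arrays, with grey dots for DMSO and orange dots for entinostat at 24 h and 48 h, and bars for the mean and SD of 3 arrays. In NPC2, PSAP, NEU1, LIPA, ASAH1 and CTSF every treated array is above the controls of its time, and in GAA and HEXA every treated array is below them.

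Most of the 10 cathepsins and peptidases did not pass, with 3 higher, 1 lower and 6 short of the threshold at 24 h and 1 higher, 2 lower and 7 not past at 48 h. The shares were 30% higher and 10% lower at 24 h, and 10% and 20% at 48 h. Of the bright genes these were 26.8% and 27.6% at 24 h, and 25.7% and 30.8% at 48 h. CTSF, a cysteine protease, was the only one of the 10 that passed at both times. Its arrays read 225, 198 and 223 in DMSO and 363, 331 and 359 in entinostat at 24 h. At 48 h they read 218, 207 and 213 in DMSO and 378, 382 and 333 in entinostat. All treated arrays of CTSF exceeded all controls, with log2 fold changes of 0.71 (standard error 0.070, adjusted p = 9.59e-06) and 0.77 (standard error 0.070, adjusted p = 3.94e-06).

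CTSC, dipeptidyl peptidase I, which activates serine proteases, had 401, 373 and 382 in DMSO and 500.1, 458 and 494 in entinostat at 24 h and 398, 349 and 384 in DMSO and 418, 411 and 436 in entinostat at 48 h. The groups did not overlap at either time, yet only the 24 h change passed, with a log2 fold change of 0.33 at an adjusted p of 0.00149 against 0.16 at an adjusted p of 0.0732 at 48 h. The 48 h change did pass without DMSO 48 h replicate 1 (adjusted p = 0.0485), with dim probe sets left out (0.041) and with the replicate number as a block (0.0365). CTSH, an aminopeptidase, had 481, 458 and 501 in DMSO and 623, 632 and 671 in entinostat at 24 h. The 48 h arrays gave 463, 492 and 462 in DMSO and 492, 534 and 418 in entinostat, and here the groups overlapped. Its log2 fold changes were 0.42 at an adjusted p of 0.00161 and 0.021 at an adjusted p of 0.898, with an interaction of -0.40 at an adjusted p of 0.124.

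TPP1, which removes tripeptides from protein ends, was the cathepsin-group member that fell at 24 h, with 312, 318 and 331 in DMSO and 223, 278 and 228 in entinostat. Its values at 48 h were 328, 338 and 345 in DMSO and 276, 316 and 308 in entinostat. The treated arrays stayed below the controls at both times, with log2 fold changes of -0.41 at an adjusted p of 0.0024 and -0.17 at an adjusted p of 0.166. Of its 4 probe sets 3 passed at 24 h and 1, near background, at 48 h, all lower. At 48 h the members that fell were CTSL, a cysteine endopeptidase (-0.28, adjusted p = 0.00338) and CTSD, the aspartic protease (-0.30, adjusted p = 0.0292). CTSB, a cysteine protease, and CTSA, the carboxypeptidase that protects NEU1 in the lysosome, did not pass at either time (0.11 and -0.12 for CTSB, -0.30 and 0.14 for CTSA). All 5 probe sets of CTSB were above 0 at 24 h (0.075 to 0.22) and below 0 at 48 h (-0.125 to -0.032). Of these 1, at a mean log2 of 7.4, was called higher at 24 h (0.19, adjusted p = 0.0475), and none was called at 48 h. CTSS and CTSZ had mean log2 values of 6.18 and 6.26, in the range of the macrophage markers, and did not pass at either time.

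The 3 genes for lipid transfer and saposins rose at both times, where 26.8% of the bright genes were higher at 24 h and 25.7% at 48 h. NPC2, the soluble protein that hands cholesterol to the membrane protein NPC1, had the largest fold change of all 43 members, with 278, 261 and 278 in DMSO and 654, 642 and 588 in entinostat at 24 h. At 48 h its arrays gave 306, 281 and 275 in DMSO and 883, 783 and 772 in entinostat. No treated array came near a control array, and the 3 treated arrays at 48 h were above those at 24 h. The log2 fold changes were 1.20 (standard error 0.068, adjusted p = 1.07e-07) and 1.50 (standard error 0.068, adjusted p = 1.81e-08), or 2.3-fold and 2.83-fold, and the interaction of 0.29 did not pass (adjusted p = 0.197).

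PSAP, the precursor of the saposins that present sphingolipids to their hydrolases, read 2474, 2456 and 2508 in DMSO and 4782, 5131 and 4597 in entinostat at 24 h. In the 48 h groups it read 2590, 2509 and 2643 in DMSO and 5265, 5864 and 5283 in entinostat. Controls and treated arrays of PSAP were far apart, with log2 fold changes of 0.96 (standard error 0.059, adjusted p = 1.9e-07) and 1.08 (standard error 0.059, adjusted p = 6.47e-08), and both of its probe sets were higher. NPC1, which takes cholesterol out of the lysosome, had 237, 229.9 and 233 in DMSO and 322, 365 and 354 in entinostat at 24 h and 257, 209.7 and 208 in DMSO and 275, 261 and 276 in entinostat at 48 h. The groups were apart at both times, and the log2 fold change was 0.57 at an adjusted p of 0.000152 at 24 h and 0.27 at an adjusted p of 0.0216 at 48 h. The call of NPC1 at 48 h was lost in 4 of the 12 refits with 1 array removed: DMSO 48 h replicate 2 or 3, or entinostat 48 h replicate 1 or 3.

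Membrane proteins split by gene and time, with 1 higher, 2 lower and 3 not past at 24 h and 2 higher, 1 lower and 3 not past at 48 h. The shares were 16.7% higher and 33.3% lower at 24 h, and 33.3% and 16.7% at 48 h. Of the bright genes these were 26.8% and 27.6% at 24 h, and 25.7% and 30.8% at 48 h. LAMP2, a glycoprotein of the lysosomal membrane that also serves chaperone-mediated autophagy, had 849.8, 912 and 869.6 in DMSO and 1302, 1173 and 955 in entinostat at 24 h and 892, 802 and 843 in DMSO and 1174, 1092 and 1181 in entinostat at 48 h. The groups of LAMP2 did not overlap, and the log2 fold changes were 0.37 (standard error 0.094, adjusted p = 0.0106) and 0.44 (standard error 0.094, adjusted p = 0.00329). The other 3 probe sets of LAMP2 gave larger changes, from 0.62 to 0.86 at 24 h and from 0.66 to 0.86 at 48 h. LAMP1, its abundant relative, did not follow LAMP2 at 24 h and is described with the members whose response differed between the times.

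MCOLN1, the calcium channel TRPML1, fell at 24 h, with 369.5, 382 and 322 in DMSO and 272, 288 and 253 in entinostat. At 48 h it had 312, 274 and 284 in DMSO and 314, 291 and 302 in entinostat, and the groups overlapped. The log2 fold changes were -0.40 at an adjusted p of 0.00183 and 0.061 at an adjusted p of 0.655, and the interaction of 0.46 (adjusted p = 0.0688) passed when dim probe sets were left out before the adjustment (0.0378) and without DMSO 24 h replicate 3 (0.0368). CLN3, the membrane protein lost in juvenile Batten disease, had 292, 286 and 304 in DMSO and 191, 191 and 275 in entinostat at 24 h and 215, 217 and 266 in DMSO and 245, 207 and 259.6 in entinostat at 48 h. At 24 h entinostat replicate 3 lay close to the controls and the other 2 far below, and at 48 h the groups overlapped. The log2 fold change of CLN3 was -0.45 at an adjusted p of 0.0293 at 24 h, a call lost without any of the DMSO 24 h arrays and without entinostat 24 h replicate 1 or 2, and 0.029 at an adjusted p of 0.919 at 48 h. The other probe set of CLN3, nearly as bright, was called lower at both times, with -0.27 (adjusted p = 0.00163) and -0.15 (adjusted p = 0.0424).

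CD63, a tetraspanin of late endosomes and exosomes, had 2845, 2472 and 2579 in DMSO and 2396, 2479 and 2312 in entinostat at 24 h, where the groups overlapped. The 48 h arrays gave 2769, 2626 and 2603 in DMSO and 2344, 2201 and 2033 in entinostat, with every treated array below every control. Its log2 fold changes were -0.13 at an adjusted p of 0.192 and -0.28 at an adjusted p of 0.0072. SCARB2, the receptor that carries glucocerebrosidase to the lysosome, did not pass at either time, with 0.099 and 0.021 and standard errors of 0.11.

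The transcription factors of the CLEAR element were below the mean log2 of 8 taken for bright genes, and TFEB and MITF were dim. The factors had mean log2 values of 7.92 (TFE3), 6.62 (TFEB) and 6.55 (MITF). TFE3 was the brightest of them and had 214, 214 and 217 in DMSO and 265, 266 and 266 in entinostat at 24 h. At 48 h its arrays gave 234, 224 and 235 in DMSO and 254, 266 and 262 in entinostat. All treated arrays of TFE3 were above the controls and the changes were small, with log2 fold changes of 0.31 (standard error 0.045, adjusted p = 0.000236) and 0.17 (standard error 0.045, adjusted p = 0.0112). The next probe set of TFE3 by mean, at a mean log2 of 6.69, gave 0.038 and -0.023 and did not pass.

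TFEB read 100.5, 93.1 and 95.3 in DMSO and 108, 111 and 101 in entinostat at 24 h and 94.7, 101 and 97.6 in DMSO and 98.8, 88.5 and 95.5 in entinostat at 48 h. The groups were apart at 24 h and overlapped at 48 h, and neither change passed, with log2 fold changes of 0.15 at an adjusted p of 0.0969 and -0.054 at an adjusted p of 0.605. The other probe set of TFEB, of about the same dimness, was called higher at both times, with 0.64 (adjusted p = 1.98e-05) and 0.29 (adjusted p = 0.00733), so the probe sets of TFEB disagree. MITF, which has several promoters and a melanocyte form, had 85.3, 86.8 and 80.8 in DMSO and 112, 103 and 92.8 in entinostat at 24 h and 82.6, 80.3 and 83.5 in DMSO and 92.3, 131 and 109 in entinostat at 48 h.

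All treated arrays of MITF were above the controls, and the change passed at 48 h, with log2 fold changes of 0.28 at an adjusted p of 0.0753 and 0.42 at an adjusted p of 0.0103. The 24 h change passed without entinostat 24 h replicate 3 (adjusted p = 0.0471) and without entinostat 48 h replicate 1 (0.025) or 2 (0.021). Its next probe set gave 0.48 and 0.38, both past the threshold. Beside MITF, 2 of the 4 measured melanocyte markers were higher at 48 h, PMEL (0.64) and TYRP1 (0.33), where 17.3% of all genes were. The 4 markers were near background, with summed intensities of 276 to 287 in DMSO and 323 to 366 in entinostat at 48 h, and their part in the value of MITF was not tested.

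Of the 7 genes of V0 and its accessory proteins, 2 rose, 2 fell and 3 did not pass at 24 h, and at 48 h 5 rose, 1 fell and 1 did not pass. The shares were 28.6% higher and 28.6% lower at 24 h, near the 26.8% and 27.6% of the bright genes. At 48 h they were 71.4% and 14.3%, beside 25.7% and 30.8%. ATP6V0B, a proteolipid subunit of the rotor ring, had 1638, 1857 and 1594 in DMSO and 2738, 3000 and 2741 in entinostat at 24 h. Its values at 48 h were 1637, 1578 and 1627 in DMSO and 2798, 2801 and 2936 in entinostat. The groups were wide apart at both times, with log2 fold changes of 0.74 (standard error 0.064, adjusted p = 3.14e-06) and 0.82 (standard error 0.064, adjusted p = 1.21e-06). ATP6V0C, the main proteolipid of the same ring, did not pass at either time (-0.042 and 0.19).

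ATP6AP2, the accessory protein also known as the prorenin receptor, had 1694, 1801 and 1662 in DMSO and 2580, 2606 and 2297 in entinostat at 24 h and 1788, 1610 and 1699 in DMSO and 2842, 3037 and 2748 in entinostat at 48 h. It rose at both times without overlap, by 0.54 and 0.76 on the log2 scale (adjusted p = 6.43e-05 and 3.12e-06). ATP6AP1, the other accessory protein, had 765, 759 and 872 in DMSO and 599, 641 and 598 in entinostat at 24 h and 771, 719 and 744 in DMSO and 559, 557 and 607 in entinostat at 48 h. Here every treated array was below the controls, and the log2 fold changes were -0.38 at an adjusted p of 0.000803 and -0.38 at an adjusted p of 0.000818. ATP6AP1 was the 1 member of the V-ATPase called lower at 48 h.

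ATP6V0E1, a small subunit of V0, read 937, 965 and 914 in DMSO and 1143, 1175 and 1125 in entinostat at 24 h. In the 48 h groups it read 1187, 820.1 and 858 in DMSO and 1296, 1244 and 1252 in entinostat. No treated array fell among the controls, but DMSO 48 h replicate 1 was far above the other controls, and the log2 fold changes were 0.29 at an adjusted p of 0.0694 and 0.42 at an adjusted p of 0.01. Without that array the 24 h change passed (adjusted p = 0.000977), as it did without DMSO 48 h replicate 2 (0.0438), since all 12 arrays share the estimate of the spread. The next 2 probe sets of ATP6V0E1 by mean passed at both times, with 0.32 and 0.25 at 24 h and 0.58 and 0.62 at 48 h. ATP6V0A1, the a1 subunit found at nerve endings, had 0.17 at 24 h and 0.37 at an adjusted p of 0.0496 at 48 h, close to the threshold.

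In V1, 2 of 7 subunits rose, 2 fell and 3 did not pass at 24 h, and at 48 h 4 rose, none fell and 3 did not pass. The shares were again 28.6% higher and 28.6% lower at 24 h, near the 26.8% and 27.6% of the bright genes. At 48 h 57.1% were higher, beside 25.7%. ATP6V1A, the catalytic subunit that splits ATP, had 1224, 1151 and 1243 in DMSO and 1641, 1585 and 1458 in entinostat at 24 h. At 48 h it had 1242, 1174 and 1282 in DMSO and 1847, 1933 and 1818 in entinostat. The treated arrays were above the controls at both times and those at 48 h above those at 24 h, with log2 fold changes of 0.37 (standard error 0.060, adjusted p = 0.000504) and 0.60 (standard error 0.060, adjusted p = 9.49e-06). The interaction of this probe set did not pass (0.23, adjusted p = 0.267). The other probe set of ATP6V1A, at a mean log2 of 8.61, gave 0.36 and 0.84, both past the threshold. Its interaction of 0.49 passed (adjusted p = 0.0394). The partner of ATP6V1A in the catalytic ring, ATP6V1B2, did not pass, with 0.030 and -0.0084 and standard errors of 0.056.

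ATP6V1E1, a subunit of the outer stalks, had 1535, 1440 and 1359 in DMSO and 2039, 1929 and 1831 in entinostat at 24 h and 1290, 1201 and 1246 in DMSO and 2079, 1877 and 2027 in entinostat at 48 h. The groups did not overlap, and the log2 fold changes were 0.42 at an adjusted p of 0.000335 and 0.68 at an adjusted p of 5.95e-06. ATP6V1G1, the other protein of these stalks, had 2598, 2554 and 2575 in DMSO and 2151, 2233 and 2096 in entinostat at 24 h and 2452, 2502 and 2440 in DMSO and 2352, 2154 and 2301 in entinostat at 48 h. It was lower on every treated array, by a log2 fold change of -0.25 at an adjusted p of 0.00196 at 24 h, while -0.12 at an adjusted p of 0.104 at 48 h did not pass. Its other probe set, far dimmer, gave -0.078 and 0.044 and did not pass. ATP6V1D, of the central shaft, did not pass (0.010 and 0.058).

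For 4 members the effect of entinostat differed between 24 h and 48 h by the interaction of treatment and time, in each case towards higher levels at 48 h, and no member passed in the other direction. Of all genes 0.79% passed upward and 1.13% downward, and 18 of the 43 members (41.9%) had an unadjusted p under 0.05, beside 16.3% of all genes and 25.3% of those with a mean log2 of 8 or more. The 4 members were LAMP1, ATP6V0D1, ATP6V1H and ATP6V1C1.

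ATP6V0D1, the d subunit that joins V1 to the rotor ring, had 781, 789 and 703 in DMSO and 641, 688 and 595 in entinostat at 24 h. The 48 h arrays gave 662, 617 and 632 in DMSO and 956, 910.3 and 932 in entinostat. The treated arrays lay below the controls at 24 h and above them at 48 h, with log2 fold changes of -0.24 at an adjusted p of 0.0155 and 0.55 at an adjusted p of 3.82e-05 and an interaction of 0.79 (standard error 0.092, adjusted p = 0.00324). Between 24 h and 48 h the level shifted by -0.25 on the log2 scale in the DMSO arrays and by 0.54 in the entinostat arrays. The call of ATP6V0D1 at 24 h was lost without DMSO 24 h replicate 1 or 2 or entinostat 24 h replicate 3, and its interaction in none of the 12 refits. In a fit of the 24 h groups alone its 24 h change did not pass (adjusted p = 0.0524). ATP6V0D1 has 1 probe set.

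ATP6V1H, the regulatory subunit that couples V1 to V0, had 704, 689 and 714 in DMSO and 641, 598 and 578 in entinostat at 24 h and 685, 633 and 681 in DMSO and 886, 848 and 865 in entinostat at 48 h. Here too the treated arrays were below the controls at 24 h and above them at 48 h, with -0.22 at an adjusted p of 0.0107 and 0.38 at an adjusted p of 0.000182 and an interaction of 0.59 (standard error 0.077, adjusted p = 0.00519). The shift between the times was -0.076 in DMSO and 0.52 in entinostat. Its other 2 probe sets, with mean log2 values of 6.10 and 5.70 near background, passed at neither time. By the probe set that represents each gene, ATP6V0D1 and ATP6V1H were the 2 members called lower at 24 h and higher at 48 h. Of all 19752 genes 20 were (0.101%).

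LAMP1, the most widely used marker protein of lysosomes, read 3172, 3257 and 3264 in DMSO and 3171, 3079 and 3005 in entinostat at 24 h. Its values at 48 h were 3052, 2864 and 2984 in DMSO and 3798, 3747 and 3814 in entinostat. The treated arrays were just below the lowest control at 24 h and all above the controls at 48 h, with log2 fold changes of -0.067 at an adjusted p of 0.363 and 0.35 at an adjusted p of 9.35e-05 and an interaction of 0.42 (standard error 0.066, adjusted p = 0.0133). All 4 probe sets of LAMP1 were below 0 at 24 h, from -0.20 to -0.067. The 1 with -0.20, at a mean log2 of 9.53, was called lower there (adjusted p = 0.0185). All 4 were called higher at 48 h, with 0.35 to 0.38, and 3 of them passed the interaction. The shift between the times was -0.12 in DMSO and 0.30 in entinostat. The interaction of LAMP1 did not pass once 30 was subtracted from every intensity (adjusted p = 0.0898).

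ATP6V1C1, the subunit that holds the assembled V1 on V0, had 471, 562 and 486 in DMSO and 524, 572 and 503 in entinostat at 24 h, with overlap. In the 48 h groups it read 479, 391 and 429 in DMSO and 682, 657 and 671 in entinostat, with all treated arrays above the controls. The log2 fold changes were 0.076 at an adjusted p of 0.601 and 0.63 at an adjusted p of 0.000102, and the interaction was 0.56 (standard error 0.12, adjusted p = 0.0487). This call was lost in 11 of the 12 refits with 1 array removed and with the replicate number as a block (adjusted p = 0.0688). The next probe set of ATP6V1C1 by mean was called higher at 24 h too, with 0.30 (adjusted p = 0.0021). It gave 0.79 at 48 h and an interaction of 0.49 (adjusted p = 0.021).

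**Figure D4:**
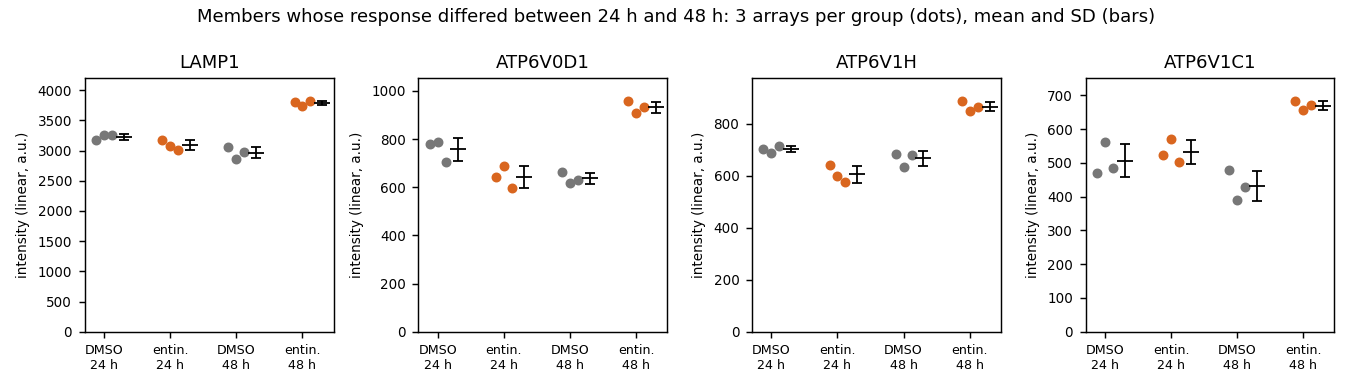
Intensity (linear, arbitrary units, axes from 0) on each of the 12 arrays of the 4 members whose response differed between 24 h and 48 h, with grey dots for DMSO, orange dots for entinostat and bars for the mean and SD of 3 arrays. In all 4 the entinostat arrays at 48 h stand above every other array, and in ATP6V0D1 and ATP6V1H those at 24 h stand below their controls.

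The V-ATPase genes as a group had higher log2 fold changes at 48 h than at 24 h. Their median log2 fold change was 0.053 at 24 h and 0.40 at 48 h, and of the 14 genes 4 rose and 4 fell at 24 h, whereas 9 rose and 1 fell at 48 h. The 24 h shares, 28.6% higher and 28.6% lower, were near the 26.8% and 27.6% of the bright genes. Those at 48 h were 64.3% and 7.14%, beside 25.7% and 30.8%. The interaction was above 0 for 13 of the 14, with ATP6V1B2 as the exception, against 48.3% of all genes, and with a median of 0.21 against -0.0066. It passed singly for 3 of the 14 by the probe set that represents each gene, and for ATP6V1A by its other probe set alone. With the other normalizations, background settings, probe sets and the refits with 1 array removed, between 12 and 14 of the 14 were above 0. Of the 29 measured members outside the V-ATPase, 14 had an interaction above 0, with a median of -0.061, and 12 were higher and 5 lower at 24 h, while the 48 h counts were 12 and 6. Their shares were 41.4% higher and 17.2% lower at 24 h, and 41.4% and 20.7% at 48 h. Counts of this kind describe the members, whose levels in the same 12 RNA samples are not independent.

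Part of this difference lay in the control arrays. In DMSO 11 of the 14 V-ATPase genes were lower at 48 h than at 24 h, with a median shift of -0.087, and in entinostat 12 of the 14 were higher, with a median of 0.093. No member passed between DMSO at 48 h and DMSO at 24 h with limma in the main analysis, and 0.461% of all genes passed. At an unadjusted p under 0.05 were 11 of the 43 members (25.6%), beside 13.1% of all genes and 22.4% of those with a mean log2 of 8 or more. CTSL (-0.26) passed when dim probe sets were left out. MCOLN1 (-0.30), CLN3 (-0.35) and CTSA (-0.26) had shifts of the same size in DMSO.

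Probe sets of the same gene mostly pointed the same way. Of the 43 members, 27 had several probe sets, and 16 had at least 2 with a mean log2 of 7 or more. In these 16 all such probe sets had the same sign in 12 at 24 h and in 14 at 48 h, and in none were they called in opposite directions.

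Members with the E-box moved in both directions. Of the 12 members with CACGTG in a window, 3 were higher, 5 lower and 4 not past at 24 h, and 5 were higher, 3 lower and 4 not past at 48 h, with medians of -0.19 and 0.10. Of the 20 measured members with a window but without it, 9 were higher and 2 lower at 24 h, while the 48 h counts were 9 and 3, with medians of 0.23 and 0.17. Beside these counts, limma called 26.8% of the bright genes higher after 24 h of entinostat and 27.6% lower. After 48 h the array-wide rates in bright genes became 25.7% for higher calls and 30.8% for lower calls. Rates for non-member genes with or without CACGTG were not computed, so a part of the motif in these counts was not tested. At 24 h the calls went by form. The 5 called lower (GAA, CLN3, MCOLN1, ATP6V1G1 and ATP6V0D1) all hold the 8-letter palindrome, which the 10-letter one contains. CTSA and LAMP1, which hold it too, were below 0 (-0.30 and -0.067) and did not pass. The 3 called higher at 24 h have the 6-letter form alone. At 48 h both the 8-letter form and the 6-letter form had calls in either direction. GAA, with 2 copies of the 10-letter palindrome shown above, fell at both times, and MCOLN1 and ATP6V1G1, with the same form, were called lower at 24 h only. NEU1, ATP6V0B and CTSF, with the 6-letter form alone, rose at both times. CD63 and CTSD, with that form alone, were called lower at 48 h (-0.28 and -0.30). LAMP1 and ATP6V0D1, with the 8-letter form, were higher at 48 h. Of the 7 members with the 8-letter form, LAMP1 and ATP6V0D1 passed the interaction and CTSA, CLN3, MCOLN1, GAA and ATP6V1G1 did not. ATP6V1C1 and ATP6V1H, which passed it too, have no window here and enter neither count. These are counts over genes that share their arrays, and the groups were not tested against each other.

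Further genes of the lysosome, none of them members, were taken from lists. Of 31 measured further hydrolases and activators, 14 were higher, 6 lower and 11 not past at 24 h, and 9, 8 and 14 at 48 h. Its shares were 45.2% higher and 19.4% lower at 24 h and 29.0% and 25.8% at 48 h, beside 18.3%, 15.0%, 17.3% and 16.6% of all genes, and its 48 h shares were near the 25.7% and 30.8% of the bright genes. LGMN, the asparaginyl endopeptidase legumain, rose by 1.19 and 1.23 on the log2 scale. SCPEP1, a carboxypeptidase, rose by 0.83 and 0.68, and IDS, a sulfatase of dermatan and heparan sulfate, by 0.69 and 0.80. HGSNAT, which acetylates heparan sulfate for its breakdown, fell, with -0.84 and -0.83.

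Of 21 further membrane proteins and transporters, 7 were higher and 1 lower at 24 h, while the 48 h counts were 9 and 3, or 33.3%, 4.76%, 42.9% and 14.3% of the list. The matching shares of the bright genes were 26.8%, 27.6%, 25.7% and 30.8%. OSTM1, the partner of the chloride transporter CLCN7, rose by 1.28 and 1.49, and SLC17A5, the sialic acid exporter sialin, by 1.31 and 1.16. LMBRD1, a protein of cobalamin export, rose by 0.87 and 0.94, and LAMP3, at a mean log2 of 6.18 near background, by 0.88 and 1.02. CLCN7 itself did not pass (-0.099 and 0.072). Both NEU1, which frees sialic acid, and SLC17A5, which carries it out of the lysosome, were thus more than 2-fold higher at both times.

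Of 24 genes for the delivery of enzymes to the lysosome, 12 were higher and 4 lower at 24 h, while the 48 h counts were 11 and 4, or 50%, 16.7%, 45.8% and 16.7% of the list. Among the bright genes these shares were 26.8%, 27.6%, 25.7% and 30.8%. AP1S1, an adaptor subunit of the trans-Golgi, rose by 0.75 and 0.94, VPS16, of the tethering complexes of late endosomes, by 0.61 and 0.82, and GNPTAB, which starts the mannose 6-phosphate tag, by 0.52 and 0.74. VPS33A, the binding partner of VPS16, fell, with -0.71 and -0.51.

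Of 16 further V-ATPase subunits and assembly factors, 8 were higher and 1 lower at 24 h, while the 48 h counts were 6 and 1, or 50%, 6.25%, 37.5% and 6.25% of the list. Bright genes had 26.8%, 27.6%, 25.7% and 30.8%. ATP6V0E2, the neuronal relative of ATP6V0E1, rose by 1.31 and 0.90, and ROGDI, of the complex that reassembles the pump, by 0.81 and 0.64. NCOA7, a V-ATPase binding protein, rose by 1.25 and 0.94. The interaction of these 16 genes was above 0 in 3, with a median of -0.092, where it was above 0 in 13 of the 14 member subunits, so the larger response at 48 h was not shared by all genes of the pump. The difference between these lists was not tested. Of 19 genes of nutrient sensing at the lysosome, 8 were higher and 5 lower at 24 h, while the 48 h counts were 8 and 6, or 42.1%, 26.3%, 42.1% and 31.6% of the list. The lower shares of this list were near the 27.6% and 30.8% of the bright genes. RRAGC, a Rag GTPase that brings mTORC1 to the lysosome, rose by 0.94 and 0.83, TBC1D7, of the TSC complex, by 0.82 and 0.59, and LAMTOR2, of the complex that anchors the Rags, by 0.48 and 0.73. MLST8, an mTORC1 subunit, fell, with -0.61 and -0.78.

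**Figure D5:**
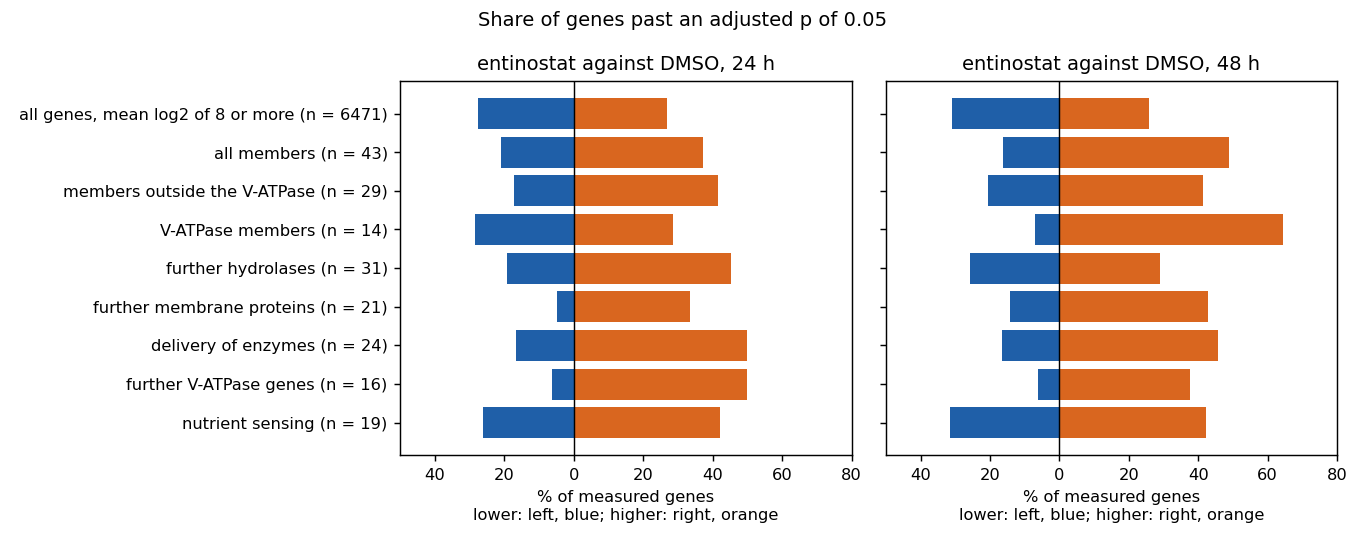
Share of measured genes past an adjusted p of 0.05 in limma at 24 h (left) and 48 h (right), with lower genes drawn to the left in blue and higher genes to the right in orange, for the members, the further lysosomal lists and the 6471 genes with a mean log2 of at least 8. The higher share of the V-ATPase members is 28.6% at 24 h and 64.3% at 48 h, beside 26.8% and 25.7% of those 6471 genes.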

How the data were processed

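RNA of HD-MB03 cells, 3 biological replicates per group per the study's methods, was measured on 12 arrays, 1 per sample. Per the submitters' processing notes the authors normalized the arrays with GCRMA, whose version is not given in the sources used here. The study's methods describe GCRMA values on the log2 scale, whereas the authors deposited intensities in linear form, with a lowest value of 36.7 and 2 empty cells. Whether these are the output of that step was not tested, and log2 was taken here. The 62 control probe sets were left out, and 54613 probe sets were fitted with limma 3.58.1 in R 4.3.3 as 4 groups without a block, with Benjamini-Hochberg adjustment over all of them and a threshold of 0.05. Entinostat was compared with DMSO at each time and in an additive model of the pooled times, and the interaction with time and the change in DMSO from 24 h to 48 h were tested too. Array number and signal over background limit the precision.

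Gene symbols came from the platform annotation: 41091 probe sets carry 1 symbol, 1801 several and 11721 none, and only the first kind was used. A gene took its probe set with the highest mean. All sample columns were mapped. Members and lists were chosen with earlier results of these data known. Values per array are given for 29 members: in each role up to 4 with the largest log2 fold change over both times among those past the threshold at 24 h or 48 h, every member past it for the interaction, and TFEB, TFE3 and MITF. Of each further list up to 4 genes were named by the same rule of size. Alternatives were a filter at a mean log2 of 7, median centring, quantile normalization, subtraction of 30, normexp with an offset of 50, a trended robust prior, separate fits per time, the replicate number as a block, other probe sets of a gene and leaving out each array in turn. Samples with the same replicate number were checked for a shared deviation from their group means. Over 18 pairs the correlation ran from -0.061 to 0.202, with a median of 0.057, and was over 0.1 in 4. Between different numbers it ran from -0.21 to 0.072. Whether the numbers mark pairs was left undecided, so the main fit has no block and the block is an alternative. The fit was tested on simulated data. Promoter windows came from RefSeq on GRCh38.p14.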

Additional observations from a re-analysis of the deposited data

Results flagged for a closer look

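The effect of entinostat differed between 24 h and 48 h, by the interaction of treatment and time in limma, for 4 members and for 4 genes of the further lysosomal lists. Among the members the interaction on the log2 scale was 0.42 for LAMP1, 0.79 for ATP6V0D1, 0.56 for ATP6V1C1 and 0.59 for ATP6V1H, each higher at 48 h. Outside the members, FUCA1, lysosomal alpha-fucosidase, had 0.62 at 24 h and 0.059 at 48 h, an interaction of -0.56 (adjusted p = 0.0207). PCYOX1, prenylcysteine oxidase, had 0.61 and -0.089, an interaction of -0.70 (adjusted p = 0.0137). SUMF1, which activates the sulfatases, had -0.38 and 0.14, an interaction of 0.52 (adjusted p = 0.0189). NAGPA, which uncovers the mannose 6-phosphate tag, had -0.78 and -0.43, an interaction of 0.35 (adjusted p = 0.0431).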

How the results depend on the processing

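Counts of members higher and lower in each of the treatment comparisons stayed within 1.5 times their main value under every alternative run. Leaving out 1 array at a time gave 16 to 17 higher and 7 to 9 lower at 24 h, 19 to 21 higher and 6 to 7 lower at 48 h, and 18 to 20 higher and 8 to 9 lower over both times. For the interaction these refits gave 3 to 4 higher and 0 to 1 lower, the 1 being GUSB without entinostat 24 h replicate 2, and subtraction of 30 gave 2 higher (ATP6V0D1 and ATP6V1H). With dim probe sets left out, 1 member (CTSL) was lower in DMSO at 48 h. Separate fits per time gave 18 higher and 7 lower at 24 h and 18 and 6 at 48 h, with no interaction to fit, and NPC1 at 48 h (adjusted p = 0.0592), TFE3 at 48 h (0.0517), CLN3 at 24 h (0.0508) and ATP6V0D1 at 24 h (0.0524) were no longer past.

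The choice of probe set turned the direction of 5 named results. The second probe set by mean gave -0.070 for LIPA, -0.15 for CLN3, 0.29 for TFEB and -0.023 for TFE3 at 48 h, and the probe set with the strongest effect likewise gave -0.15 for CLN3 and 0.29 for TFEB. With probe sets ending in _x_at or _s_at left out, ATP6V1H gave 0.019 at 24 h. Several of these probe sets are near background, and the cause was not tested.

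The check of pairing left undecided whether the replicate numbers mark pairs. With the replicate number as a block, 16 members were higher and 9 lower at 24 h, 22 and 7 at 48 h, and 19 and 8 over both times. For the interaction 3 were higher and 0 lower, with 0 higher and 0 lower in DMSO. The block lost ATP6V1C1 from the interaction (adjusted p = 0.0688) and added CTSC at 48 h (0.0365).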
